A study of Mus musculus with 4 samples.

Results

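The genes described here are 10 interferon-inducible GTPase genes of the mouse, the immunity-related GTPases (IRG) Igtp, Irgm1, Irgm2, Iigp1, F830016B08Rik, Tgtp1, Tgtp2 and Ifi47 and the very large inducible GTPases Gvin1 and Gm4070. They were taken by gene symbol and make up 10 of the 26334 rows of the deposited expression table. Their transcripts were measured by bulk RNA-seq (polyadenylated RNA) in mouse splenic CD4+ T cells, which had been purified as naive cells and then differentiated toward the T helper 1 (Th1) type over 5 days. The cultures contained interleukin-16 (IL-16), a cytokine that binds CD4, in 2 libraries, and phosphate-buffered saline (PBS), the vehicle, in the other 2. The sources used here give neither genotype, strain, age nor IL-16 dose, and do not say whether replicates stem from different mice or cultures, so the error behind each p-value may be technical. The source and cell type labels name peritoneal macrophages, against the titles. Cd4 was between 243 and 302 FPKM (fragments per kilobase of transcript, scaled to library size) in all 4 libraries, while the macrophage marker Csf1r was at most 0.135 FPKM and the median of 10 macrophage markers at most 0.121 FPKM.

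IRG proteins are GTPases that cells make in large amounts after interferon-gamma (IFN-γ) has bound its receptor and induced the transcription factor IRF1. The effector IRGs load onto the vacuoles of intracellular parasites and bacteria and disrupt them, while the IRGM proteins sit on the cell's own membranes and keep the effectors inactive there. In mouse CD4+ T cells Irgm1 is also known to protect proliferating effector cells from death driven by IFN-γ. The very large inducible GTPases are interferon-induced proteins whose function is poorly known. Th1 cells make IFN-γ. The comparison asks whether levels of the GTPase transcripts differ between the IL-16 and PBS cultures, and the response to IFN-γ itself was not tested.

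Transcripts of the GTPase family were more abundant in the IL-16 cultures. Summed over the 10 genes they reached 639 and 623.5 FPKM in the IL-16 libraries, against 441 and 447 FPKM in the PBS libraries. That was 0.165% and 0.167% of all FPKM with IL-16 and 0.114% in each PBS library. Rows that carry a member's symbol with a suffix, described below, are in the total but not in the sum. The largest of them, Igtp-2, had 223 and 206 FPKM with IL-16, against 137 and 143 FPKM with PBS. The sum may count some reads more than once, since Gvin1 and Gm4070, and Tgtp1 and Tgtp2, share most of their sequence. Iigp1 rose 2.30-fold and was the single member to pass the test over the whole table. F830016B08Rik had a ratio of means of 3.06 at a low level, 7 further genes had ratios between 1.18 and 1.53, and Ifi47 had a ratio of 1.02. In a bulk sample, a larger share of expressing cells and more RNA per cell cannot be told apart.

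The test was limma on log2(FPKM + 1), adjusted by the Benjamini-Hochberg method over the 11882 rows that reached 1 FPKM in at least 2 libraries. All 10 genes passed that filter. At an adjusted p under 0.05, 1 of 10 members was called higher and none lower, against 0.16% of tested rows called higher. At an unadjusted p under 0.05, 9 of 10 were higher, against 9.59% of tested rows. In 9 of 10 both IL-16 values lay above both PBS values, against 24.1% of tested rows. The median log2 fold change was 0.48 over the members and -0.045 over all tested rows. Against the PBS mean, the first IL-16 library had a median of 0.47 and the second 0.50, while PBS replicate 2 minus replicate 1 gave 0.044. These counts are a description, because the genes were chosen with results known and several share most of their sequence.

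**Figure D1:**
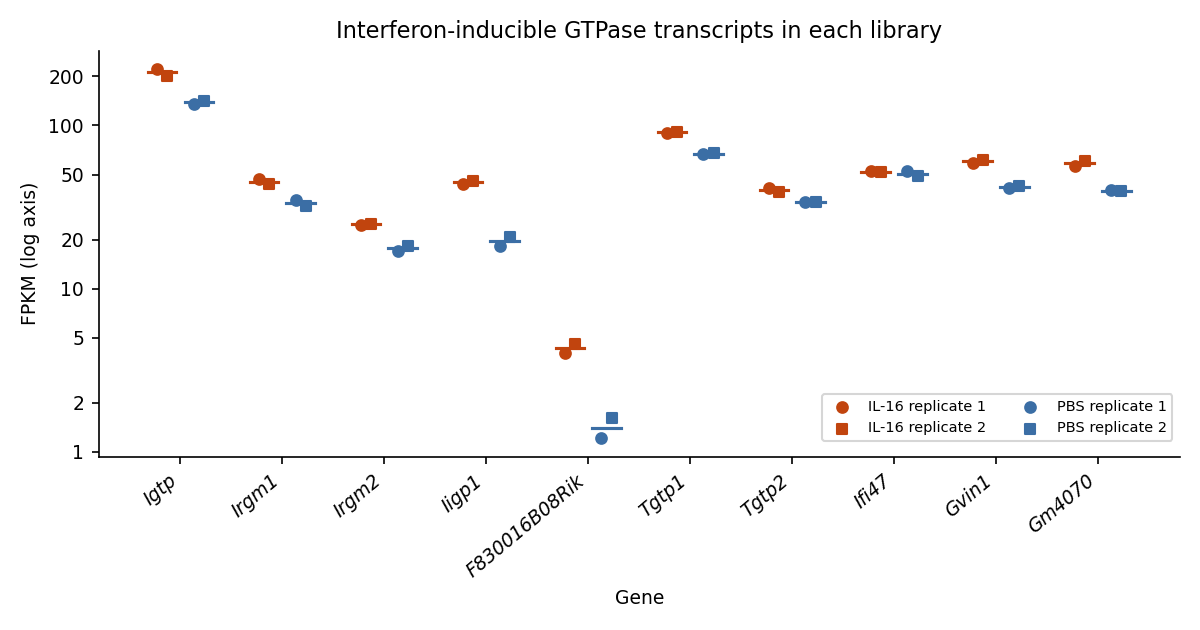
FPKM of each gene (log axis) in the IL-16 libraries (orange) and the PBS libraries (blue), with circles for replicate 1, squares for replicate 2 and a line at the group mean. The groups overlap for Ifi47 alone, and Igtp is the most abundant gene in every library.

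The promoters of the chromosome 11 genes are shown because most of them hold a match to a pattern known from interferon-responsive genes. RefSeq windows running from 250 bases before to 50 bases after the start site were found for 6 of the 10 members (build GRCm38.p6). Iigp1, F830016B08Rik, Gvin1 and Gm4070 were not matched. A pair of patterns were searched on either strand, the gamma-activated site of IFN-γ-responsive genes (GAS, TTCNNNGAA) and the interferon-stimulated response element bound by IRF proteins (ISRE, GAAANNGAAA). Capitals mark their matches, 5′ to 3′ on the gene's strand.
Igtp, chr11:58199492-58199551, plus strand: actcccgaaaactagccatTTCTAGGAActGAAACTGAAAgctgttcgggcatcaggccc
Irgm2, chr11:58214883-58214942, plus strand: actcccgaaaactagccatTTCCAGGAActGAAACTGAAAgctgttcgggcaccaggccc
Tgtp1, chr11:48992294-48992353, minus strand: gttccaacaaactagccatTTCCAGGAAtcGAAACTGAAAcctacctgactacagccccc
Tgtp2, chr11:49064253-49064312, minus strand: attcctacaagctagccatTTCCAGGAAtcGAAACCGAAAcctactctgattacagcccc
Irgm1, chr11:48871415-48871480, minus strand: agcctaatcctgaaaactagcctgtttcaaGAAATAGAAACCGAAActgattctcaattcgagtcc
Ifi47, chr11:49076507-49076566, plus strand: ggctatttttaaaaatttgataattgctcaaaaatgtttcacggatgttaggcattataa

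Igtp, Irgm2, Tgtp1 and Tgtp2 each held 1 GAS match and, 2 bases after it, 1 ISRE match. Counted from the start site, the ISRE match began at position -34 in Igtp, -64 in Irgm2, -77 in Tgtp1 and -70 in Tgtp2. Irgm1 held 2 ISRE matches that overlap each other, beginning at -30 and -24, and no GAS match. The Ifi47 window held neither pattern, which says only that these letters are not in that window. Of 32851 windows of the same length, 3.44% held an ISRE match, 8.3% a GAS match and 0.454% at least 1 of each. The pair with exactly 2 bases between, a spacing looked for after it had been seen in these genes, occurred in 5 windows (0.0152%), all of IRG genes: the 4 named and Gm12185. These are related sequences and not independent cases, and in GENCODE vM21 Gm12185 overlaps Tgtp1 on the same strand. The windows of Igtp and Irgm2 share an identical run of 61 bases and those of Tgtp1 and Tgtp2 one of 27 bases.

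**Figure D2:**
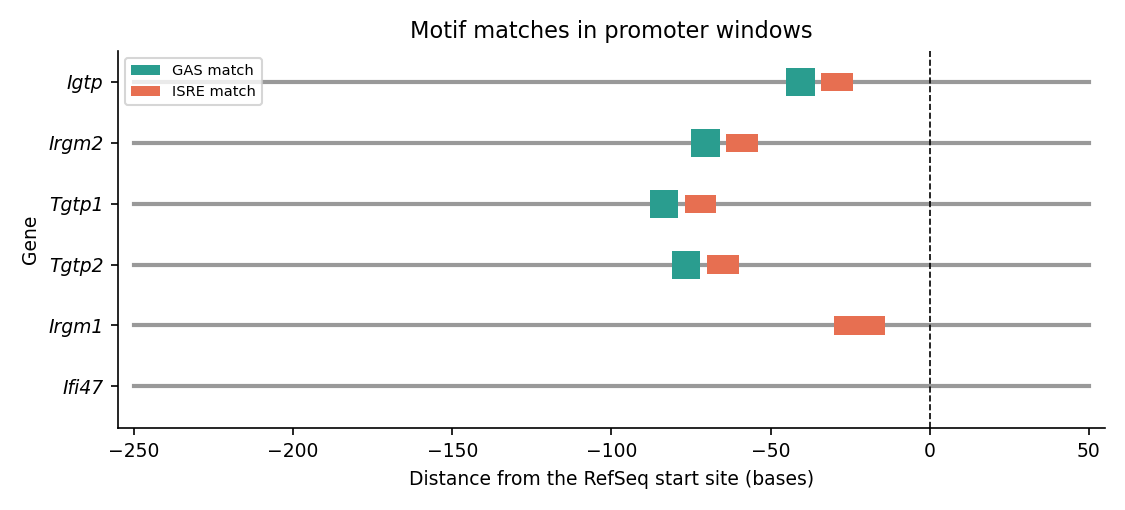
Matches to the GAS (green) and ISRE (orange) patterns in the promoter windows of 6 genes, by distance in bases from the RefSeq start site (dashed line). In Igtp, Irgm2, Tgtp1 and Tgtp2 a GAS match lies 2 bases before an ISRE match, and the Ifi47 window holds neither.

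The regulators of the family, the IRGM genes, were higher in both IL-16 libraries, though none passed over all rows. Igtp (also called Irgm3), which protects host membranes from the effectors, had 221 and 201 FPKM in the IL-16 libraries, against 136 and 141 FPKM in the PBS libraries. Both IL-16 values of Igtp lay above both PBS values, and IL-16 replicate 1 was the higher of its pair. Its mean was 211 ± 13.99 FPKM with IL-16 and 138 ± 3.67 FPKM with PBS (SD, n = 2 each). The log2 fold change was 0.61 with an SE of 0.081 (limma, adjusted p = 0.0686). Its call depended on the processing, since it passed in 5 of 13 alternatives (adjusted p 0.0122 to 0.416), among them median-of-ratios scaling (adjusted p = 0.0470).

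Irgm1, the regulator tied to T cell survival, had 46.8 and 43.6 FPKM in the IL-16 libraries, against 35.1 and 32.2 FPKM in the PBS libraries (log2 fold change 0.42, 95% interval 0.21 to 0.63, adjusted p = 0.105). Irgm2, which guards a different set of host membranes, had 24.7 and 24.8 FPKM with IL-16, against 17.1 and 18.3 FPKM with PBS (log2 fold change 0.46, 95% interval 0.27 to 0.66, adjusted p = 0.0939). In neither gene did the groups overlap. Igtp was 4.71 and 4.61 times as abundant as Irgm1 in the IL-16 libraries, against 3.86 and 4.38 times in the PBS libraries.

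Iigp1 (Irga6), an effector that coats parasite vacuoles, had 43.8 and 45.7 FPKM in the IL-16 libraries, against 18.2 and 20.8 FPKM in the PBS libraries. Both IL-16 values lay well above both PBS values. Its mean was 44.8 ± 1.32 FPKM with IL-16 and 19.5 ± 1.89 FPKM with PBS (SD, n = 2 each). The log2 fold change was 1.16 with an SE of 0.091 (limma, 95% interval 0.93 to 1.39, adjusted p = 0.0350). The call was lost without PBS replicate 1 (adjusted p = 0.131), without PBS replicate 2 (adjusted p = 0.0810) and without the filter on low values (adjusted p = 0.148), within a range of 0.0119 to 0.148 over 13 alternatives. The log2 fold change ran from 1.02 to 1.26 over them.

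F830016B08Rik, which RefSeq lists under the synonym Ifgga4 in the naming series that has Iigp1 as Ifgga1, was the least abundant member. It had 4.02 and 4.60 FPKM in the IL-16 libraries, against 1.21 and 1.60 FPKM in the PBS libraries. All 4 values were low, and the groups stood apart. Its log2 fold change on the log2(FPKM + 1) scale, which understates changes at such levels, was 1.14 (95% interval 0.78 to 1.51, adjusted p = 0.0658), and it ran from 0.54 with a pseudocount of 5 to 1.56 with one of 0.1. By size of log2 fold change Iigp1 was at place 36 and F830016B08Rik at place 38 of the 11882 tested rows.

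The effector genes Tgtp1 and Tgtp2, which encode closely related copies of Irgb6, showed smaller differences. Tgtp1 had 90.4 and 91.1 FPKM in the IL-16 libraries, against 66.3 and 68.0 FPKM in the PBS libraries (log2 fold change 0.43, 95% interval 0.26 to 0.60, adjusted p = 0.0849). Tgtp2 had 41.5 and 39.0 FPKM with IL-16, against 34.2 and 34.1 FPKM with PBS (log2 fold change 0.23, 95% interval 0.048 to 0.41, adjusted p = 0.162). The groups stood apart in both genes, and the ratio of Tgtp1 to Tgtp2 was 2.18 and 2.34 in the IL-16 libraries, against 1.94 and 1.997 in the PBS libraries. In GENCODE vM21, 89.4% of the 50-base stretches of the longest Tgtp1 transcript also occur in Tgtp2, so how reads divide between the pair is uncertain.

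Ifi47 (Irgd), another effector of the same cluster, was the member whose groups overlapped. It had 52.2 and 51.5 FPKM in the IL-16 libraries, against 52.2 and 49.2 FPKM in the PBS libraries. The log2 fold change was 0.033 (95% interval -0.14 to 0.21, adjusted p = 0.801), and its sign turned without PBS replicate 2 (-0.0082). The interval excludes a change as large as that of Iigp1. The ratio of Iigp1 to Ifi47 within a library was 0.839 and 0.887 with IL-16, against 0.348 and 0.423 with PBS.

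The very large inducible GTPase genes gave almost the same values as each other. Gvin1 had 58.8 and 61.4 FPKM in the IL-16 libraries, against 41.3 and 42.8 FPKM in the PBS libraries (log2 fold change 0.51, 95% interval 0.33 to 0.68, adjusted p = 0.0698). Gm4070, which shares the RefSeq synonym VLIG-1 with Gvin1, had 56.1 and 60.8 FPKM with IL-16, against 40.04 and 39.7 FPKM with PBS (log2 fold change 0.54, 95% interval 0.35 to 0.73, adjusted p = 0.0698). Both genes were higher in every IL-16 library than in any PBS library. Of the 50-base stretches of the longest Gvin1 transcript, 98.3% also occur in Gm4070, so these rows may hold the same reads and count as little more than 1 observation. Gm1966, a further row of the same gene family, overlapped between the groups and had 7.89 and 8.79 FPKM with IL-16, against 7.87 and 7.98 FPKM with PBS.

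**Figure D3:**
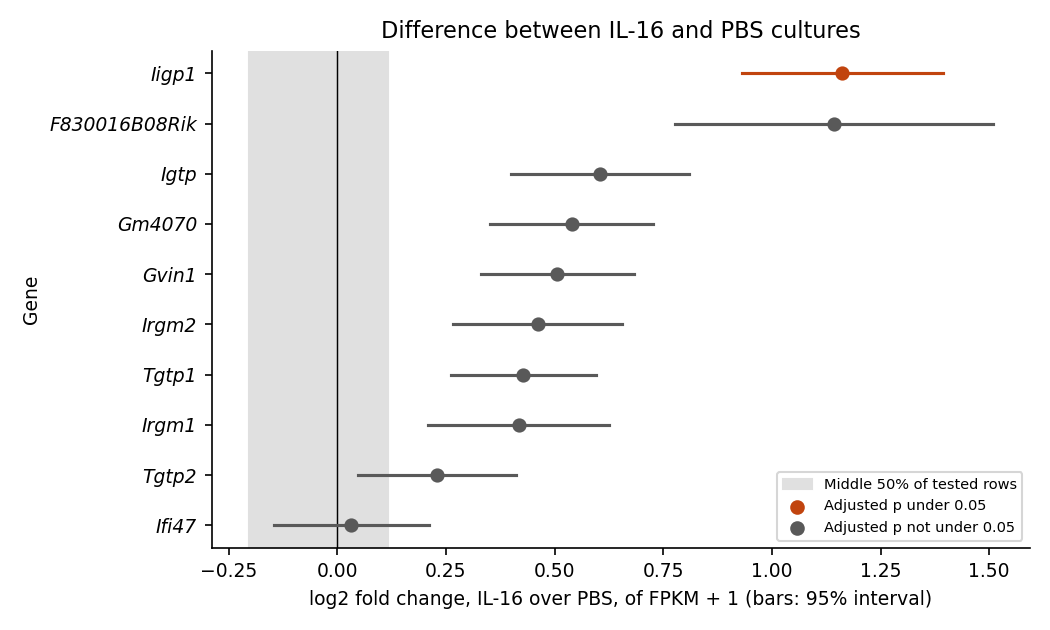
Log2 fold change of each gene, IL-16 over PBS, on the log2(FPKM + 1) scale with its 95% interval from limma, where orange marks an adjusted p under 0.05 and the grey band the middle 50% of tested rows. Iigp1 is the orange gene at 1.16, F830016B08Rik lies beside it at 1.14, and the interval of Ifi47 spans 0.

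The order of the levels moved within the family. FPKM, the unit inferred here, allows levels to be compared between genes. The places of Gvin1, Gm4070, Tgtp1 and Tgtp2 are uncertain, because each pair shares most of its sequence and how reads divide within it is not known. In both groups Igtp was highest and Tgtp1 next, and F830016B08Rik was lowest with Irgm2 above it. With IL-16 the order between them was Gvin1, Gm4070, Ifi47, Irgm1, Iigp1 and Tgtp2, where the libraries of Gvin1 and Gm4070 overlapped, as did those of Irgm1 and Iigp1. With PBS it was Ifi47, Gvin1, Gm4070, Tgtp2, Irgm1 and Iigp1, where Tgtp2 overlapped Irgm1, and Iigp1 overlapped Irgm2. As a share of the summed FPKM of the family, Iigp1 held 6.86% and 7.33% in the IL-16 libraries, against 4.12% and 4.66% in the PBS libraries. Ifi47 held 8.17% and 8.26% with IL-16, against 11.8% and 11.01% with PBS.

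Beside the rows named by symbol, the table held 11 rows that carry such a symbol with a numeric suffix, for Igtp, Irgm1, Irgm2, Tgtp2 and Ifi47. The sources used here do not say what the suffix stands for. The row Igtp-2 had 223 and 206 FPKM in the IL-16 libraries, against 137 and 143 FPKM in the PBS libraries, within 1.03 times the Igtp row in every library. Ifi47-2 likewise followed Ifi47, at 49.3 and 47.2 FPKM with IL-16, against 50.2 and 47.0 FPKM with PBS. Irgm2-2 had a log2 fold change of 0.49, against 0.46 for Irgm2, and Tgtp2-2 one of 0.35, against 0.23 for Tgtp2. Ifi47-4 did not follow Ifi47, with 11.2 and 0.575 FPKM with IL-16, against 0.445 and 3.19 FPKM with PBS (log2 fold change 0.83, adjusted p = 0.648), and its groups overlapped. The rows Tgtp2-3, Tgtp2-4 and Ifi47-3 were too low to be tested.

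Rows of Irgm1 differed in direction. Irgm1-2 had 20.96 and 21.8 FPKM in the IL-16 libraries, against 13.5 and 10.5 FPKM in the PBS libraries (log2 fold change 0.80, adjusted p = 0.0877). Irgm1-3 had 0.219 and 0.158 FPKM with IL-16, against 2.47 and 6.06 FPKM with PBS (log2 fold change -2.06, adjusted p = 0.0930). Irgm1-4 had 3.32 and 2.63 FPKM with IL-16, against 1.93 and 2.12 FPKM with PBS (log2 fold change 0.39, adjusted p = 0.195). The PBS values of Irgm1-3 differed more than 2-fold from each other, and the row was small beside Irgm1 itself. In the GENCODE annotation Irgm2 overlaps Igtp, and Tgtp1 overlaps the IRG gene Gm12185, each on the same strand. Ifi47, Tgtp1 and Tgtp2 overlap the span of the olfactory receptor gene Olfr56. For Ifi47 this is on the same strand and for the Tgtp genes on the opposite one. Whether counting used strand is not stated, and strand could help only with the opposite-strand overlaps. Reads of any of these overlaps may not have been told apart.

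**Figure D4:**
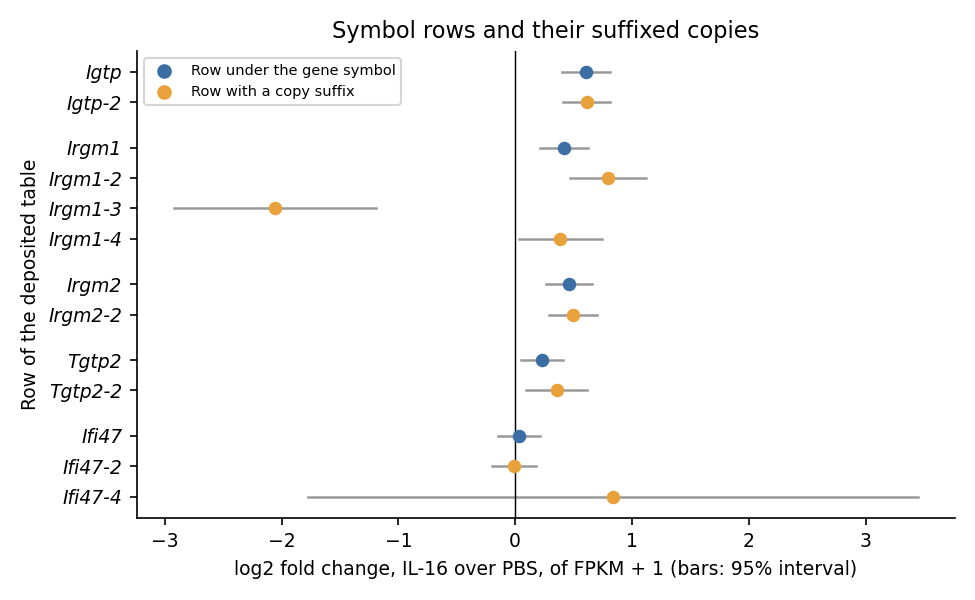
Log2 fold change, IL-16 over PBS, with its 95% interval for the symbol rows of 5 genes (blue) and their tested rows with a copy suffix (orange). Igtp-2, Irgm2-2 and Ifi47-2 lie beside their symbol rows, Irgm1-3 lies at -2.06, and Ifi47-4 lies at 0.83 with an interval that spans 0.

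The other IRG rows of the table gave a similar picture at lower levels. Of 9 such rows 7 were tested, none passed over all rows, and 6 had a log2 fold change above 0 (median 0.32), where 42.2% of all tested rows were above 0. Gm4951, the Ifgga2 of that naming series, had 6.35 and 8.51 FPKM with IL-16, against 3.997 and 2.90 FPKM with PBS (log2 fold change 0.92, adjusted p = 0.105). Gm12250 (Irgb10), an effector that attacks bacterial membranes, had 21.2 and 19.1 FPKM with IL-16, against 14.9 FPKM in each PBS library (log2 fold change 0.41, adjusted p = 0.107). Irgq, a distant relative of the family, was the tested row below 0 and had 6.17 and 5.15 FPKM with IL-16, against 6.33 and 6.90 FPKM with PBS (log2 fold change -0.20, adjusted p = 0.366).

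Genes of the IFN-γ pathway that acts on the family did not move one way. Ifng, the ligand, rose to 119.8 and 123 FPKM in the IL-16 libraries, against 58.1 and 53.0 FPKM in the PBS libraries (log2 fold change 1.12, adjusted p = 0.0329), and was 1 of 11 genes of this list to pass. Over all tested rows, 0.16% were called higher. Ifngr2, the signalling chain of the receptor, had 8.14 and 8.49 FPKM with IL-16, against 14.2 FPKM in each PBS library (log2 fold change -0.71, adjusted p = 0.0615). Jak2, the kinase bound to that chain, had 58.8 and 55.7 FPKM with IL-16, against 80.9 and 81.5 FPKM with PBS (log2 fold change -0.50, adjusted p = 0.0699). The groups stood apart for each of these genes, with Ifng high and Ifngr2 and Jak2 low in the IL-16 libraries.

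Irf1, the transcription factor named above, had 185 and 179 FPKM in the IL-16 libraries, against 116 and 125 FPKM in the PBS libraries (log2 fold change 0.59, adjusted p = 0.0666). It did not pass over all rows, although both IL-16 values lay above both PBS values. The feedback inhibitor Socs1 had 137 and 121 FPKM with IL-16, against 137 and 127 FPKM with PBS. Over the 11 genes of the list the median log2 fold change was -0.011.

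In the type I interferon list none of 7 genes passed, and 6 had a log2 fold change above 0 (median 0.17), against 42.2% of all tested rows. Its smallest p-values belonged to Usp18, which removes ISG15 from proteins and dampens the receptor, with 28.4 and 23.5 FPKM with IL-16, against 13.97 and 13.02 FPKM with PBS (adjusted p = 0.0656), and to Stat2 (log2 fold change 0.38, adjusted p = 0.105). Of 10 guanylate-binding protein genes, the GTPases that act beside IRGs at vacuoles, Gbp2 and Gbp10 rose (log2 fold change 1.07 and 0.98, adjusted p = 0.0350 for both), none fell, and the median was 0.60. Among all tested rows 0.16% were called higher.

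The LC3 and GABARAP conjugation genes, whose products guide IRG and guanylate-binding proteins to vacuoles, had a median log2 fold change of -0.080, and none of 12 passed. Gabarap, one of the conjugated proteins, had 75.8 and 86.9 FPKM in the IL-16 libraries, against 36.3 and 15.8 FPKM in the PBS libraries (log2 fold change 1.71, SE 0.36, adjusted p = 0.107). The groups of Gabarap stood apart, but its PBS values differed more than 2-fold. Atg16l1, a subunit of the conjugating complex, had 12.9 and 12.4 FPKM with IL-16, against 16.1 and 14.8 FPKM with PBS (adjusted p = 0.168). Of the vacuole ubiquitin genes Traf6, Trim21 and Sqstm1 none passed. The smallest p-values among them were those of Trim21, a ubiquitin ligase (log2 fold change 0.26, adjusted p = 0.255), and Sqstm1, the ubiquitin-binding adaptor p62 (log2 fold change -0.081, adjusted p = 0.545).

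**Figure D5:**
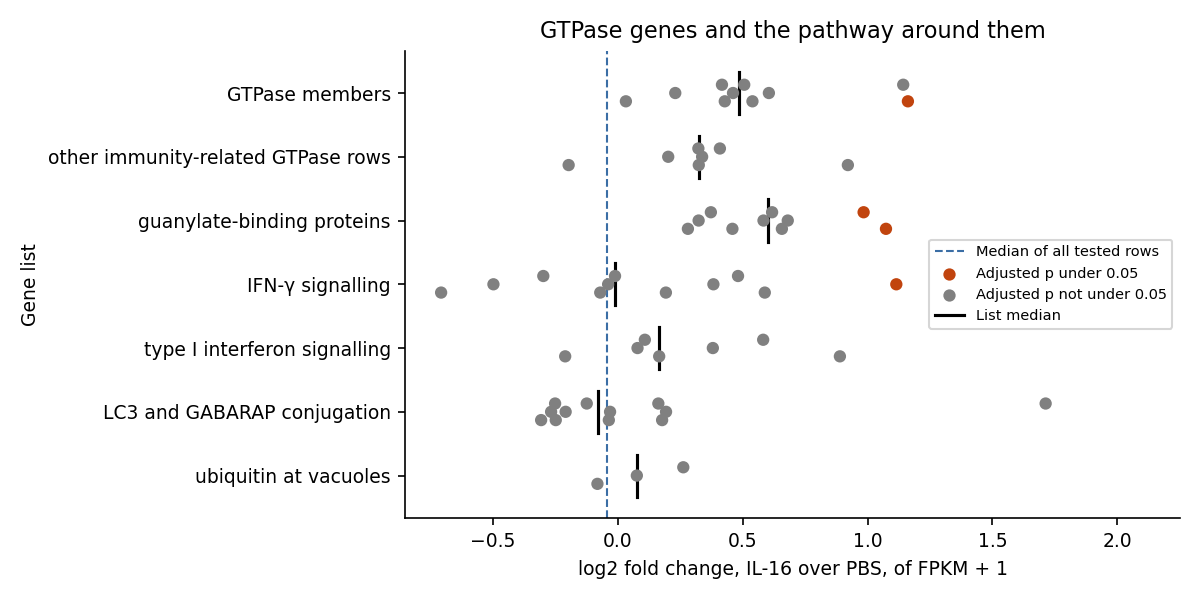
Log2 fold change, IL-16 over PBS, of every tested gene of the GTPase family and 6 related lists, where orange marks an adjusted p under 0.05, black ticks the list medians and the dashed line the median of all tested rows (-0.045). Genes of the GTPase family (median 0.48) and the guanylate-binding proteins (median 0.60) all lie above 0 with all libraries (Ifi47 turned to -0.0082 without PBS replicate 2), and the IFN-γ signalling genes lie on either side of it.

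Genes with the pattern most like the median profile of the family over the 4 libraries were Ppp1r12a, Armcx2, Mt2, Cd247 and Icam1, by Euclidean distance of centred log2 values among 7761 rows with a mean of at least 5 FPKM. Icam1, an adhesion molecule, had 44.8 and 45.0 FPKM with IL-16, against 31.7 and 33.01 FPKM with PBS. Cd247, the zeta chain of the T cell receptor complex, had 141 and 146 FPKM with IL-16, against 100.03 and 101.1 FPKM with PBS. With 4 libraries in 2 groups, such likeness says little more than that these rows differ between the groups by a similar amount.

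Across the libraries, total FPKM was 388218 and 373924 with IL-16 and 385907 and 391153 with PBS, and the number of reads behind the values is unknown. The summed level of 10 macrophage markers was 5.26 and 6.53 FPKM with IL-16, against 4.92 and 5.49 FPKM with PBS, most of it Cd68. The 5 B cell markers summed to 1.71 and 2.11 FPKM with IL-16, against 3.13 and 4.09 FPKM with PBS. None of these 5 was at 0 throughout. The 5 NK cell markers summed to 25.7 and 25.4 FPKM with IL-16, against 30.5 and 24.8 FPKM with PBS, most of it Klrd1 and Klrk1. Of the rest, Ncr1 was at most 0.528 FPKM, Klrb1c at most 0.549 FPKM and Eomes at most 1.31 FPKM. The 5 neutrophil markers, mostly Ly6g, had 29.7 and 24.2 FPKM with IL-16, against 28.3 and 26.5 FPKM with PBS. Among them S100a8, S100a9 and Elane were at 0 in every library, and Mpo was at most 0.322 FPKM. The 2 CD8 T cell markers had 9.99 and 8.63 FPKM with IL-16, against 8.75 and 8.23 FPKM with PBS. Of 8 CD4 T cell markers 5 had a log2 fold change above 0, while Cd3d was lower with IL-16 (log2 fold change -0.50). The part of other cell types in the GTPase levels was not tested.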

How the data were processed

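Expression was measured in 4 RNA-seq libraries of polyadenylated RNA, 2 per group, grouped and numbered by their titles. The values deposited by the authors were read as FPKM, inferred from values that are not whole and from unequal column totals, since the table names no unit. Tools named in the submitters' processing notes are fastp, HISAT2 and featureCounts, with build GRCm39 and no versions. Ratios of low values (under 0.2 FPKM) between pairs of libraries did not cluster, with at most 1.49% of them inside a 0.5% window, so reads could not be recovered and no counting error is given.

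Tests were two-sided, with limma 3.58.1 in R 4.3.3 (mean-variance trend, group as the sole term) on log2(FPKM + 1) for 11882 rows. The fit was checked on simulated data with planted changes larger than those of most members. That check does not cover calls at the size of most members. With 2 libraries against 2, an exact permutation test of a single gene cannot go below p = 0.333 and was not used. Members, gene lists and rules were chosen with earlier results of these data known. Named genes were all members, the passing genes of each list or else those with the smallest p-values, and the 5 nearest patterns. Irgq, Ifngr2, Jak2, Irf1 and Socs1 fall outside that rule and were named after their values were seen. The values of 1 gene of the IFN-γ signalling list are not reported here. RefSeq and GENCODE vM21 are of GRCm38, so no deposited value was tied to a coordinate. Of the gene lists, both Mx genes, 7 of 8 further Gvin names, 2 of 11 other IRG names and 1 of 11 guanylate-binding protein names were not analysed here.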

Additional observations from a re-analysis of the deposited data

How the results depend on the processing

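With 10 of 10 members above 0 on the log2 scale, direction held under 13 alternatives except for Ifi47, which ran from -0.0082 (without PBS replicate 2) to 0.074 with 1 library left out. The number of calls did not hold. Leaving out 1 library gave 9 to 2065 calls in the whole table and 0 to 8 among the members (26 and 1 with all libraries). It was 0 members when either PBS library was dropped, 8 when IL-16 replicate 1 was dropped and 2 for its partner. These fits take the spread of the lone library from the other group. Without the low-value filter limma tested 19465 rows and called 0 rows and 0 members (3068 rows and 9 of 10 members at an unadjusted p under 0.05). Median-of-ratios scaling gave 53 calls, 2 of them members (Igtp and Iigp1), and rescaling to TPM gave 40. Summing copy rows and at once merging Tgtp1 with Tgtp2 gave 126 calls among 11306 tested rows, 5 of them among the 9 members then left. Dropping copy rows, chosen after seeing the data, gave 102 calls among 11268 tested rows and 4 of 10 members. The median of the members was 0.44 at a pseudocount of 5, 0.46 with the stricter filter (9 members left), 0.53 after median-of-ratios scaling, 0.52 after TPM rescaling, 0.51 with copies summed and the Tgtp genes merged (9 members), and 0.47 to 0.52 with 1 library left out. The cause of these shifts was not tested. Same-numbered libraries did not deviate together over the tested rows (r = 0.0067). With 2 libraries per group, this cannot settle whether the numbers pair them. The replicate block gave 31 calls and 1 member. Depth is unknown, which limits what can be said of the low gene F830016B08Rik.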
